A study of Mus musculus with 4 samples.

Results

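Robo3-positive migrating GABAergic interneurons were chosen by their UMI counts of 21 genes in single-cell RNA-seq of the E15.5 mouse cerebellum, from which cells with tdTomato fluorescence had been sorted, and 292 of 24856 kept cells met the rule. A cell was kept when at least 500 genes were detected and at most 10% of its unique molecular identifiers (UMIs, counted transcript molecules) were mitochondrial. A member had at least 2 UMIs summed over Robo3, Slco3a1 and Crtac1 and at least 1 UMI of the interneuron genes Pax2, Tfap2b or Slc6a5. It had 0 UMIs of the early precursor genes Neurod1, Neurod6, Nanos1, Nhlh2 and Scx. It had at most 2 UMIs of the maturation genes Sez6, Igfbp5, Glra2 and Grin2b, and at most 1 each of Sst with Cartpt, of the Purkinje genes Foxp2, Calb1 and Skor2, and of Ebf1. All of these are measured values from the same cells, so the levels of these genes describe the members and test nothing.

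The mutant embryos, called En1/2 CKO, were Ptf1aCre/+; En1lox/lox, En2lox/lox; R26LSL-tdT/+, and the controls were Ptf1aCre/+; R26LSL-tdT/+, with 2 libraries of each. All groups therefore carry the Ptf1a Cre allele and the reporter, and tdTomato labels cells in which Ptf1a, a transcription factor needed for cerebellar GABAergic neurons, has driven Cre, together with their descendants. Embryos of a library were pooled, and the labels do not give their number, so the libraries are the units of each p-value. In members the spread between libraries also holds the sampling of few cells, since control replicate 2 gave 1 member. Floxed En1 (chromosome 1) and floxed En2 (chromosome 5) were present in the mutants alone, so for a gene on either chromosome the mutation and linked DNA cannot be told apart.

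Inhibitory interneurons of the cerebellum arise from Ptf1a-expressing progenitors of the ventricular zone, switch on Pax2 around their last division and then migrate through the white matter before they settle. Robo3 is a receptor of the Robo family, best known for the crossing of the midline by commissural axons. It differs from the other mammalian Robo receptors in that it does not bind Slit with high affinity and acts together with the netrin receptor DCC. Slco3a1 encodes an organic anion transporter, and Crtac1 encodes a secreted protein, also called LOTUS, that blocks the Nogo receptor. Engrailed proteins are homeodomain transcription factors that pattern the cerebellum.

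The promoters of the receptor and of the secreted marker are shown because both genes define the cells. The RefSeq windows (build GRCm38.p6) hold the 250 bases before the transcription start on the minus strand, 5′ to 3′, and capitals mark TAATTA, a core recognised by homeodomain proteins, and CANNTG, the E-box bound by basic helix-loop-helix proteins. The first is Robo3 at chr9:37433176-37433425, and the others are starts of Crtac1 at chr19:42431789-42432038 and chr19:42431495-42431744.
Robo3: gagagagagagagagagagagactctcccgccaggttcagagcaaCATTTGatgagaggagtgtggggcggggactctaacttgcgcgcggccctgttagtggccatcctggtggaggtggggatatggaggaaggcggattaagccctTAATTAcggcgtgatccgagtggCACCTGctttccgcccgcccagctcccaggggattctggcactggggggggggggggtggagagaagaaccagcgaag
Crtac1, distal start: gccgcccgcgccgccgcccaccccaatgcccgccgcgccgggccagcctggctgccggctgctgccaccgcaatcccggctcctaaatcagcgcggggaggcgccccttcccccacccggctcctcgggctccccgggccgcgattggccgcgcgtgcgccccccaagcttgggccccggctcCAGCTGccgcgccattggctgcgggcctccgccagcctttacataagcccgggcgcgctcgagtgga
Crtac1, proximal start: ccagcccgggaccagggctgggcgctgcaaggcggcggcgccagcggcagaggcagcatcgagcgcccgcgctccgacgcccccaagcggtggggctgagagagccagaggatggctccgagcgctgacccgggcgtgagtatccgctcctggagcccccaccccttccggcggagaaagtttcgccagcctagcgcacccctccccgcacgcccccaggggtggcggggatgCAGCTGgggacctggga
Robo3 held 1 TAATTA, 101 to 96 bases before the start, and 2 CANNTG matches, CATTTG and CACCTG, of which CACCTG lay 78 to 73 bases before the start. Each Crtac1 window held 1 CANNTG, spelled CAGCTG, and 0 TAATTA. Both motifs read the same on both strands, and no 2 matches overlapped. Among 32817 windows of the same length, 4.85% held TAATTA and 66.2% held CANNTG. A match describes the letters only.

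Members were spread unevenly over the libraries: 24 and 69 came from En1/2 CKO replicates 1 and 2, against 198 and 1 from control replicates 1 and 2. Control replicate 2 stood apart throughout, since 25.5% of its barcodes were kept, against 63.9 to 94.6% in the other libraries, and the median mitochondrial share of its barcodes was 13.4%, against 3.15 to 5.88%. Its single member held 895 UMIs, too few for levels, so that levels below are given for the 3 libraries with at least 20 members and the genotype comparison rests in effect on both mutant libraries against control replicate 1, although the fit included that cell. Library totals ran from 5305154 to 21021428 UMIs. Members held 45909 and 90157 UMIs in the mutant libraries, against 246327 in control replicate 1, so that 1 UMI was worth 21.8 and 11.1 CPM (UMIs scaled to a common total of 1000000 per summed population) in the mutants and 4.06 CPM in control replicate 1. No barcode was shared between members of different libraries, while 55 barcodes were shared over all pairs of libraries among kept cells.

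The members were shallow cells, and a few deep ones carried much of the RNA. The median member had 925.5 and 955 UMIs in En1/2 CKO replicates 1 and 2, against 1146 in control replicate 1. Cells of more than 3000 UMIs numbered 5 of 24 and 4 of 69 in the mutants and 3 of 198 in control replicate 1, and they held 62.5% and 28.9% of the members' UMIs in the mutants, against 6.47% in control replicate 1. Genes that led the deep cells over the other members were Apoe, a lipid carrier of glia and macrophages, at 2675 against 61.0 CPM, Mt1 at 722 against 19.2 CPM and the glial transcription factor Sox9 at 311 against 22.5 CPM. Slc32a1, the vesicular transporter of GABA and glycine, went the other way, at 28.3 CPM in the deep cells against 584 CPM in the others, as did doublecortin (Dcx) at 28.3 against 401 CPM. The genes of this paragraph were chosen after their values were seen. The 12 deep cells are members by the rule, and values are therefore also given for the 280 members of at most 3000 UMIs, a limit chosen after seeing the data.

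**Figure D1:**
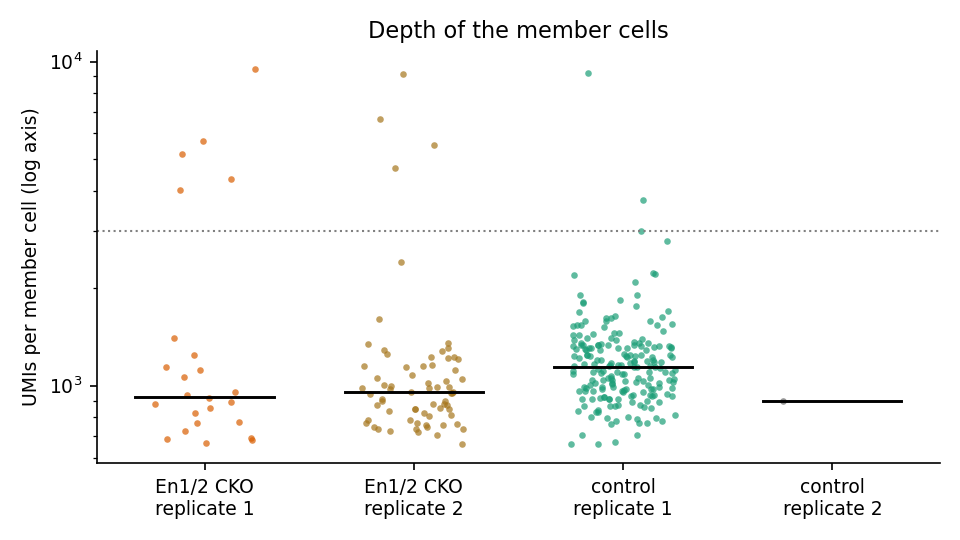
UMIs of each member cell (log axis) by library, with the median as a black line and 3000 UMIs as a dotted line. Most members lay near 1000 UMIs, and 12 cells lay above 3000.

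The conditions removed cells in unequal steps. Of the kept cells, 4923 had the 2 marker UMIs and 3980 of these had an interneuron gene. Requiring 0 early precursor UMIs left 797, the maturation limit 653, the Sst and Cartpt limit 633, the Purkinje limit 613, and the limit on Ebf1, a transcription factor of young Purkinje and other neurons, 292. A condition of absence is met more easily by a shallow cell. The median depth of cells passing the first pair of conditions was 4325.5 and 2981 UMIs in En1/2 CKO replicates 1 and 2, against 1350 and 2550 UMIs in control replicates 1 and 2.

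Just inside the marker limit were 127 members with exactly 2 marker UMIs, and just outside it were 345 cells with 1 marker UMI that met every other condition. The cells just outside had 102 and 352 CPM in En1/2 CKO replicates 1 and 2, against 465 CPM in control replicate 1 for Robo3. Their Slc32a1 was 59.7 and 181 CPM in the mutant libraries against 442 CPM in control replicate 1. Among members, 82 had 3 marker UMIs, 49 had 4 and 34 had 5 or more. Exactly 1 Ebf1 UMI, the limit itself, was present in 132 members (45.2%).

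Robo3 carried most of the marker signal. A Robo3 UMI was found in 276 of 292 members (94.5%), a Slco3a1 UMI in 112 (38.4%) and a Crtac1 UMI in 67 (22.9%). Robo3 was the sole marker in 137 members, came with Slco3a1 alone in 79, with Crtac1 alone in 42, and all 3 were present in 18. Members without a Robo3 UMI had Slco3a1 alone (9), Crtac1 alone (1) or both (6). Microglia, gated on at least 5 UMIs of C1qa, C1qb, Tyrobp, Csf1r and Cx3cr1, should lack these genes and give the level of free RNA. Of 455 such cells, with medians of 3273 to 4674 UMIs, 9.67% had a Robo3 UMI, 1.98% a Slco3a1 UMI and 1.54% a Crtac1 UMI. The members had to hold these UMIs, so the shares are not compared.

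As levels, the members' Robo3 was 1024 and 1797 CPM in En1/2 CKO replicates 1 and 2, against 1879.6 CPM in control replicate 1. The exact Poisson 95% intervals were 752 to 1361, 1531 to 2096 and 1712 to 2059 CPM in that order, and they cover counting error only. In the members of at most 3000 UMIs Robo3 was 2382 and 2401 CPM in the mutant libraries against 1997 CPM in control replicate 1. Without the deep cells En1/2 CKO replicate 1 was therefore not the lowest. Slco3a1 was 392 and 299 CPM in the mutant libraries against 410.0 CPM in control replicate 1, and without the deep cells 813 and 389.8 CPM in the mutant libraries against 429.7 CPM in control replicate 1. Crtac1 was 152 and 211 CPM in the mutant libraries against 211 CPM in control replicate 1, and without the deep cells 290.4 and 296 CPM in the mutant libraries against 217 CPM in control replicate 1. In all members the counting intervals of the 3 libraries overlapped for Slco3a1 and Crtac1.

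The interneuron genes were carried by different members. Tfap2b, a transcription factor of the inhibitory lineage, was detected in 198 members, Pax2 in 163 and Slc6a5, the glycine transporter of glycinergic neurons, in 28. Pax2 was the sole interneuron gene in 80 members, Tfap2b in 110 and Slc6a5 in 10, and 74 had Pax2 with Tfap2b only. Pax2 was 305 and 577 CPM in the mutant libraries against 621 CPM in control replicate 1, and without the deep cells 523 and 811 CPM in the mutant libraries against 659.8 CPM in control replicate 1. Tfap2b was 501 and 477 CPM in the mutant libraries against 926 CPM in control replicate 1. Without the deep cells it was 871 and 546 CPM in the mutant libraries against 977 CPM in control replicate 1, and En1/2 CKO replicate 1 lay close to control replicate 1. Slc6a5 rested on 3, 10 and 17 UMIs, at 65.3 and 111 CPM in the mutant libraries against 69.0 CPM in control replicate 1, and without the deep cells it was 174 and 156 CPM in the mutant libraries against 73.8 CPM in control replicate 1. Of microglia 13.6% had a Pax2 UMI and 20.7% a Tfap2b UMI, and since every member had to hold an interneuron UMI the shares are not compared.

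The GABAergic label was checked on genes that the rule did not use. At least 1 UMI of the GABA-synthesising enzymes Gad1 and Gad2 or of Slc32a1 was found in 187 of 292 members (64%). By library these were 12 of 24 and 41 of 69 members in the mutants, and 134 of 198 and 0 of 1 in the controls. Over all libraries a Slc32a1 UMI was present in 129 of 292 (44.2%) members, against 6.81% of microglia. A Gad1 UMI was present in 68 of 292 (23.3%), against 5.05%, and a Gad2 UMI in 50 of 292 (17.1%), against 5.05%. Control replicate 1 gave 198 of the members and 98 of the microglia, and En1/2 CKO replicate 2 gave 69 and 227. The pooled shares therefore do not set members beside the free RNA of their own library. Slc32a1 was 174 and 388 CPM in the mutant libraries against 572 CPM in control replicate 1, and without the deep cells 465 and 530.2 CPM in the mutant libraries against 608 CPM in control replicate 1. Gad1 rested on 1 and 13 UMIs in the mutants and 71 in control replicate 1, at 21.8 and 144 CPM in the mutant libraries against 288 CPM in control replicate 1, and without the deep cells it was 58.1 and 203 CPM in the mutant libraries against 308 CPM in control replicate 1. Gad2 was 152 and 155 CPM in the mutant libraries against 138 CPM in control replicate 1, and without the deep cells 407 and 203 CPM in the mutant libraries against 148 CPM in control replicate 1. A list of 8 GABAergic and glycinergic genes, which holds the rule genes Tfap2b and Slc6a5, was also summed. It came to 1111 and 1664 CPM in mutant members, against 2480 CPM in control replicate 1. In other kept cells it came to 1021, 1020 and 1600 CPM in that order, so members of En1/2 CKO replicate 1 lay close to them. Without the deep cells the members' sums were 2498, 2105 and 2630 CPM. The reporter transcript was detected in 128 of 292 (43.8%) members, against 81.5% of the deeper microglia, so its presence in members cannot be told apart from free RNA.

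Markers of other cell types differed by list. Calb1, a defining Purkinje gene, was at 0 in every member, but it is among the genes that the rule restricts. The endothelial markers Cldn5, Pecam1 and Flt1 were all at 0. Slc17a6, Slc17a7 and Tbr1 of glutamatergic neurons and Aqp4 of astroglia were at 0 too. The other 3 of 6 glutamatergic markers summed to 174 and 189 CPM in mutant members, against 85.3 CPM in control replicate 1. In other kept cells the glutamatergic list summed to 117, 141 and 86.9 CPM in that order. The other 4 of 5 astroglial markers summed to 261, 421 and 175 CPM in members, and their list to 477, 601 and 419 CPM in other kept cells. The lists of choroid plexus and microglia were high with the deep cells. Of the 3 choroid plexus markers Kcnj13 was at 0, and the others summed to 50339 and 189 CPM in the mutants, against 28.4 CPM in control replicate 1, and the microglial markers, all 5 detected, to 0 and 1287 CPM, against 337 CPM. In members of at most 3000 UMIs the same sums were 58.1 and 249 CPM, against 21.7 CPM, for choroid plexus, and 0 and 62.4 CPM, against 8.68 CPM, for microglia. Radial progenitor markers, all 7 detected, summed to 8234 and 6211 CPM in all members of the mutants, against 3329 CPM in control replicate 1. In members of at most 3000 UMIs they summed to 2149 and 3727 CPM in the mutants, against 3151 CPM, so that the mutants lay above control replicate 1 with the deep cells and on both sides of it without them. The 4 cycling markers summed to 87.1 and 521 CPM in all mutant members, against 114 CPM in control replicate 1.

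**Figure D2:**
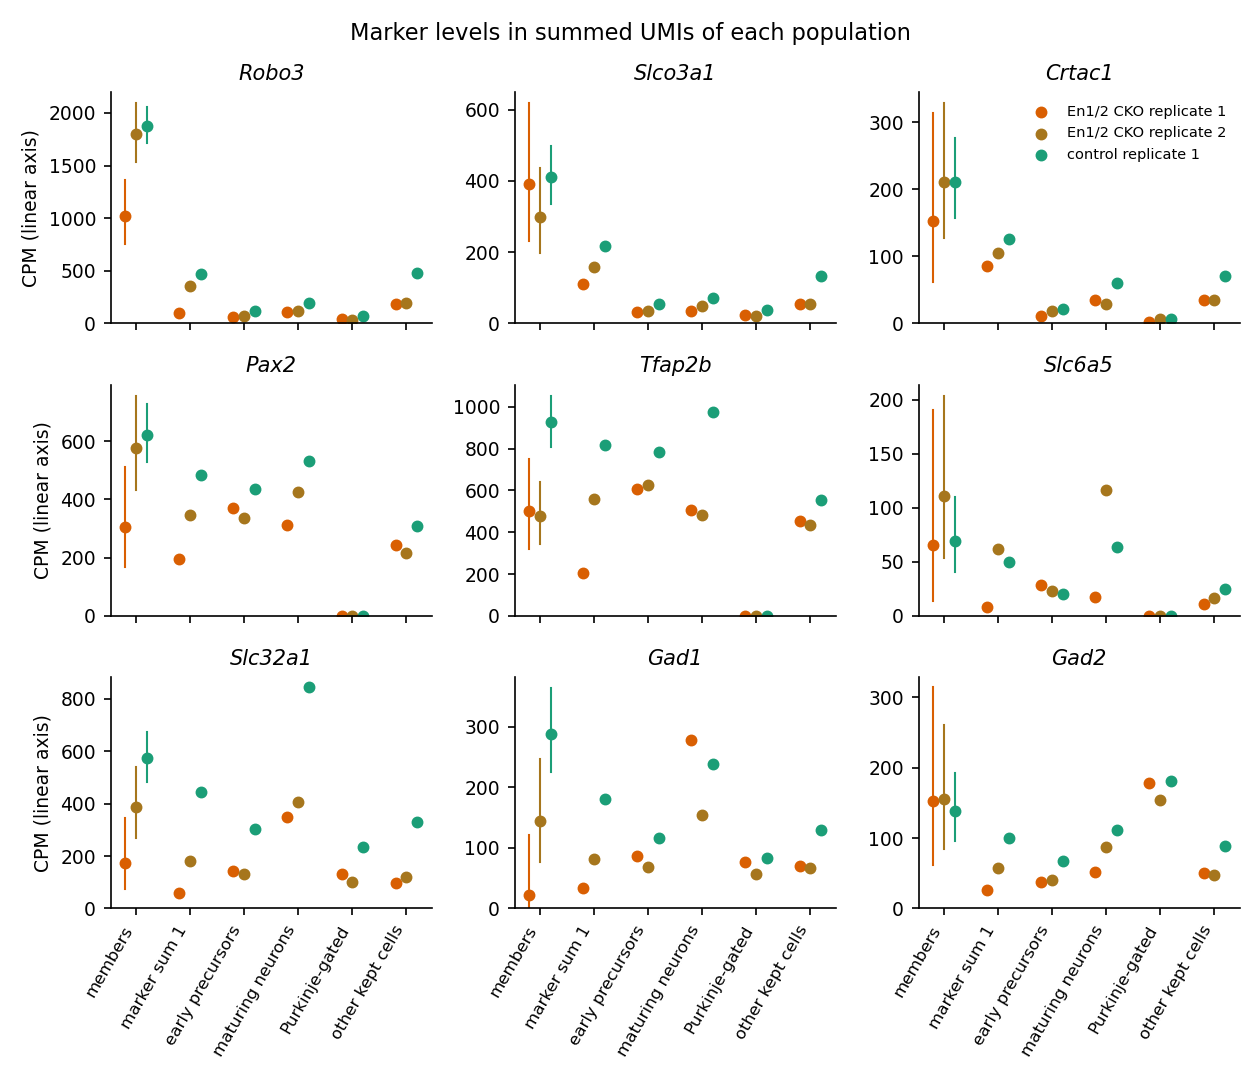
CPM (linear axes from 0) of the 3 marker genes, the 3 interneuron genes and 3 GABA genes in summed UMIs of each population; points are libraries, and bars on members are exact Poisson 95% intervals of counting error. Robo3, Slco3a1 and Crtac1 were highest in members by construction, while Slc32a1 and Gad2, which the rule did not use, were also present in them.

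For comparison, 741 early precursors had at least 2 UMIs of the early genes, 284 maturing inhibitory neurons had at least 3 UMIs of the maturation genes and 449 Purkinje-gated cells had at least 2 UMIs of the Purkinje genes and 0 of the interneuron genes, each with at most 1 marker UMI. These populations were gated on values of the same cells, so what follows is a description with no test, over the 3 libraries with at least 20 members. The members' values there include the deep cells unless a depth limit is named. The Robo3 mean over those libraries was 1567 CPM in members, against 81.6 CPM in early precursors, 137 CPM in maturing neurons, 46.0 CPM in Purkinje-gated cells and 287 CPM in all other kept cells. Across the 12 sums of 4 populations in 3 libraries, the genes whose level on the log2(CPM + 10) scale was most like that of Robo3 were Slco3a1 (Pearson r 0.98) and Crtac1 (0.98), both in the rule, followed by Sorbs2 (0.92), Miat (0.89) and Calr (0.88). The sums of a library share its depth and free RNA.

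Sorbs2, which encodes an adaptor of the actin cytoskeleton, was 806 and 1109 CPM in En1/2 CKO replicates 1 and 2, against 799.7 CPM in control replicate 1 in members. In early precursors it was 344 and 295 CPM in the mutant libraries against 323 CPM in control replicate 1, and in maturing neurons 399.9 and 610.0 CPM in the mutant libraries against 605 CPM in control replicate 1. Members were above both in all 3 libraries. The long non-coding RNA Miat was 436 and 666 CPM in the mutant libraries against 857 CPM in control replicate 1 in members and 298 and 278 CPM in the mutant libraries against 397 CPM in control replicate 1 in early precursors.

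Among genes outside the rule with at least 50 CPM in members, Cntn2 had the highest ratio both to early precursors and to all other kept cells. Cntn2, the axonal adhesion molecule TAG-1, was 196 and 521 CPM in En1/2 CKO replicates 1 and 2, against 199 CPM in control replicate 1, 2.95 times the mean of early precursors and 2.61 times that of maturing neurons, with 10 CPM added to each. Dcc, the attractive netrin receptor, averaged 531 CPM in members, against 246 CPM in early precursors and 216 CPM in maturing neurons. Unc5c, a repulsive netrin receptor, averaged 496 CPM in members, against 264 CPM in early precursors but 648 CPM in maturing neurons. Over all members both netrin receptors were therefore above early precursors, and of the pair Dcc alone was above maturing neurons. In members of at most 3000 UMIs Unc5c averaged 831 CPM, above the 648 CPM of maturing neurons, to which no depth limit was applied. That mean was led by En1/2 CKO replicate 1, with control replicate 1 lowest. Whether the contrast between the pair rests on the deep cells was not tested. Robo1 and Robo2, the Slit receptors, were sparse, with means of 52.9 and 22.8 CPM in members, against 59.1 and 49.5 CPM in early precursors.

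Of 36 netrin, semaphorin and Eph genes, 5 were above early precursors in 3 of 3 libraries and 2 below. At least 3 UMIs in members were found for 29 of the 36. Over all 10081 genes with at least 3 UMIs in members, 12.1% were above and 16.5% below, and since the gates chose these cells nothing is read from either share. Of 26 immunoglobulin adhesion genes, of which 20 had at least 3 UMIs, 6 were above and 0 below. Among them were Ncam1 at 671 against 368 CPM and Negr1 at 205 against 85.6 CPM. Of 30 cell cycle genes 0 were above and 21 below. In members against early precursors, the linker histone Hist1h1b averaged 26.0 against 144 CPM, the ribonucleotide reductase subunit Rrm2 26.5 against 118 CPM and the replication factor Pclaf 43.1 against 163 CPM. Insm1, a transcription factor of neuronal progenitors, averaged 27.3 against 137 CPM, and the ephrin receptor gene Epha5 54.7 against 233 CPM.

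Further genes were above early precursors in all 3 libraries. Nrxn3, a presynaptic adhesion molecule, was 1372 and 2029.8 CPM in En1/2 CKO replicates 1 and 2, against 2529 CPM in control replicate 1, 2.47 times early precursors on average. In members against early precursors Thsd7a averaged 663 against 224 CPM, the extracellular proteoglycan gene Optc 293 against 96.4 CPM and the transmembrane gene Tmem108 295 against 99.9 CPM. Plcb1, a phospholipase of G-protein signalling, averaged 168 against 59.2 CPM and Gad2 149 against 48.3 CPM. Against all other kept cells the neuropeptide precursor Pnoc averaged 313 against 132 CPM. The glial and matrix genes Bcan, Tnc and Sparcl1 were low in the same comparison, at 11.5 against 104, 39.9 against 142 and 156 against 473 CPM. Radial progenitor markers were not low in every library. They summed to 8234 and 6211 CPM in mutant members, against 8153 and 8518 CPM in other kept cells. In control replicate 1 they summed to 3329 against 4414 CPM.

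Against maturing inhibitory neurons, Klhl35, a kelch-like gene, had the highest ratio among genes higher in members, at 174 and 466 CPM in En1/2 CKO replicates 1 and 2, against 272 CPM in control replicate 1 in members. Maturing neurons had 0 and 38.7 CPM in the mutant libraries against 68.2 CPM in control replicate 1, and the ratio of means was 6.88. In members against maturing neurons, the nuclear envelope gene Sun1 averaged 108 against 19.6 CPM, the adhesion gene Kirrel2 138 against 30.1 CPM and the immunoglobulin protein Igsf8 414 against 132 CPM. Of 33 transcription factors of cerebellar GABAergic neurons, 10 were above maturing neurons in 3 of 3 libraries and 1 below. Over the 10081 genes with at least 3 UMIs in members the shares were 12.6% and 10.7%. Of the list's 35 genes, rule genes included, 28 had that many UMIs, so the sets are not alike. Nfib averaged 1457 against 968 CPM and Zic1 826 against 612 CPM.

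Several genes were lower in members than in maturing neurons. The adhesion molecule Chl1 averaged 47.0 against 200.2 CPM, the NMDA receptor subunit Grin1 27.2 against 102 CPM and Galnt17 14.0 against 72.5 CPM. Gad1 was split between libraries, with members of both mutants below and members of control replicate 1 above, and averaged 151 against 224 CPM. Gad2 was above in all 3 libraries, at 149 against 83.4 CPM. The 12 genes of GABA and glycine machinery, rule genes included, summed to less in members in all 3 libraries. They came to 653 and 1154 CPM in mutant members and 1522 CPM in control replicate 1. In maturing neurons they came to 1165, 1249 and 1862 CPM in that order. Haemoglobin genes were also low, but unevenly between libraries: in maturing neurons Hbb-y was 13475 and 842 CPM in the mutant libraries against 2509.7 CPM in control replicate 1, and in members 741 and 843 CPM in the mutant libraries against 666 CPM in control replicate 1. Haemoglobin is the product of red cells, and its part in the other differences was not tested.

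**Figure D3:**
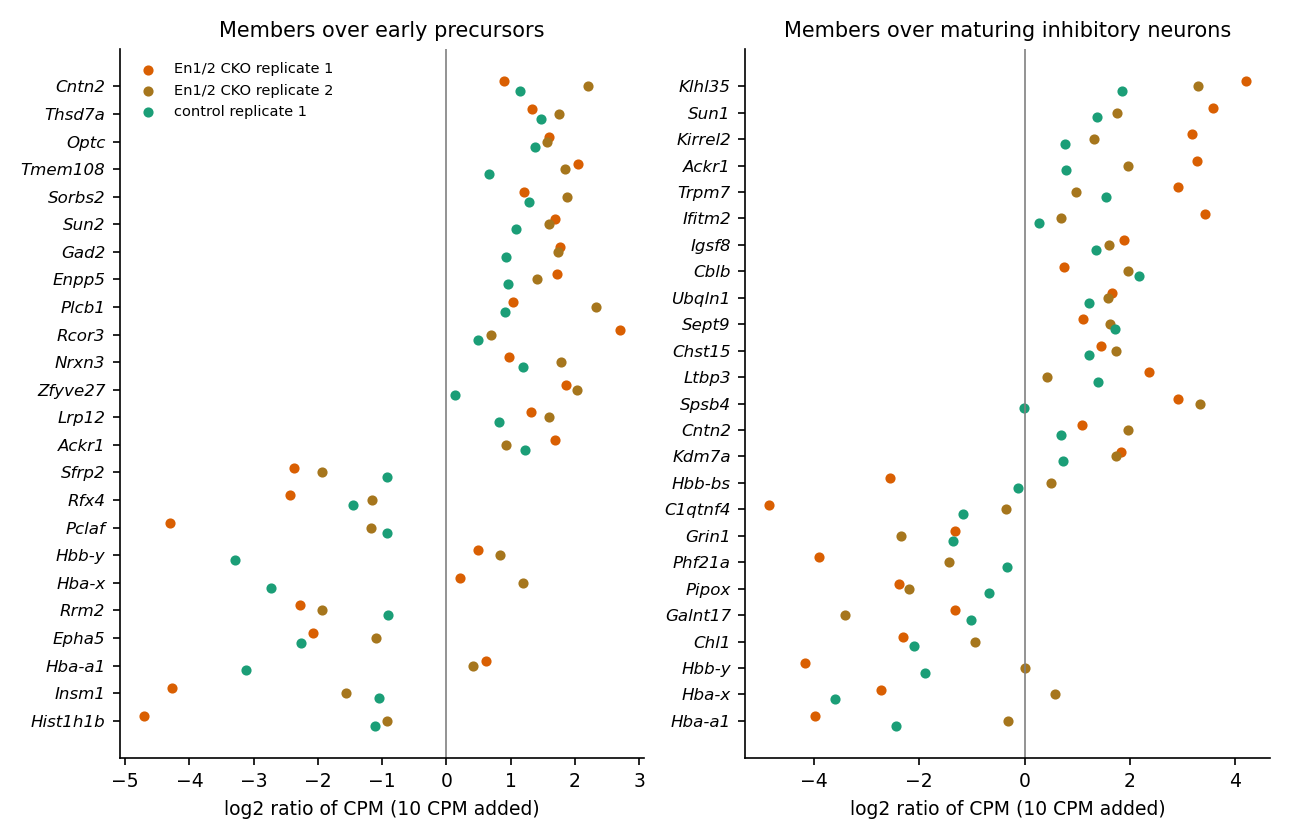
log2 ratio of members over early precursors (left) and over maturing inhibitory neurons (right) for genes among those with the largest ratios of mean CPM (10 CPM added), excluding the genes of the rule; each point is a library. The upper genes were above 0 in all 3 libraries except Spsb4, which was level in control replicate 1, while the haemoglobin genes changed side between libraries in both panels, except Hba-a1 in the right panel.

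Among the members themselves, those with Robo3 as their sole marker were set beside those that also or instead had Slco3a1 or Crtac1, in cells of at most 3000 UMIs. The division uses the rule's genes, so other genes are described only. Pnoc was 659 CPM in control replicate 1 members with Robo3 alone, against 217 CPM in the others of that library, and 616 against 399 CPM in En1/2 CKO replicate 2. In En1/2 CKO replicate 1 it was 324 against 362 CPM, the opposite direction, on 2 and 4 UMIs. Meg3, a long non-coding RNA of neurons, was lower in members with Robo3 alone in all 3 libraries, at 1459.9 and 1497 CPM in the mutants with Robo3 alone, against 2805 and 3659 CPM in the others. In control replicate 1 the same pair was 1046 and 1239.5 CPM. Members with a Pax2 UMI had more Klhl35 in all 3 libraries, at 1092, 614 and 406 CPM in the order given above. Members without one had 171, 559 and 134 CPM. Dcc was likewise 2183, 768 and 488 CPM with Pax2, against 1195, 479 and 309 CPM without. These Klhl35 values rested on 2 to 54 UMIs and the Dcc values on 12 to 65. The genes were chosen after their values were seen.

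The design sets En1/2 CKO embryos beside controls, and the first comparison was the share of cells. Members made up 0.458% (95% interval 0.294 to 0.681%) and 0.858% (95% interval 0.668 to 1.08%) of kept cells in En1/2 CKO replicates 1 and 2, against 1.9% (95% interval 1.65 to 2.18%) and 0.085% (95% interval 0.00215 to 0.472%) in control replicates 1 and 2, with exact Clopper-Pearson intervals of counting error. Both mutant libraries lay between the controls, so the groups overlapped. The means were 0.658 ± 0.283% and 0.994 ± 1.29% (SD, n = 2 each), and the exact 2-sided permutation p was 1, where the smallest this design allows is 0.333. The mutant mean minus the control mean was -0.336 percentage points with all libraries and turned to 0.573 without control replicate 1. After each cell was thinned to 1000 UMIs the shares were 0.393% and 0.826% in the mutants, against 2.51% and 0.197% in the controls, and again the controls lay on both sides. Thinning kept the 4071 and 4720 cells of the mutants, and the 7610 and 1014 cells of the controls, that had at least 1000 UMIs. The unthinned shares of those cells were 0.246% and 0.572% in the mutants, against 1.79% and 0% in the controls.

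With the marker and interneuron conditions alone, on thinned cells, the shares were 5.58% (95% interval 4.89 to 6.33%) and 5.25% (95% interval 4.63 to 5.93%) in the mutants, against 14.6% (95% interval 13.9 to 15.45%) and 3.35% (95% interval 2.33 to 4.65%) in the controls. Both mutant libraries were close to each other and the controls stood on either side of them (exact permutation p = 1, n = 2 each). Of cells with any interneuron UMI, members made up 0.941% and 1.99% in the mutants, against 3.09% and 0.178% in the controls (exact permutation p = 1, n = 2 each). Microglia-gated cells numbered 65 of 5236 and 227 of 8041 kept cells in the mutants. In the controls they numbered 98 of 10402 and 65 of 1177, so the sorted suspensions also differed in other cells. The part of sorting in the shares was not tested.

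**Figure D4:**
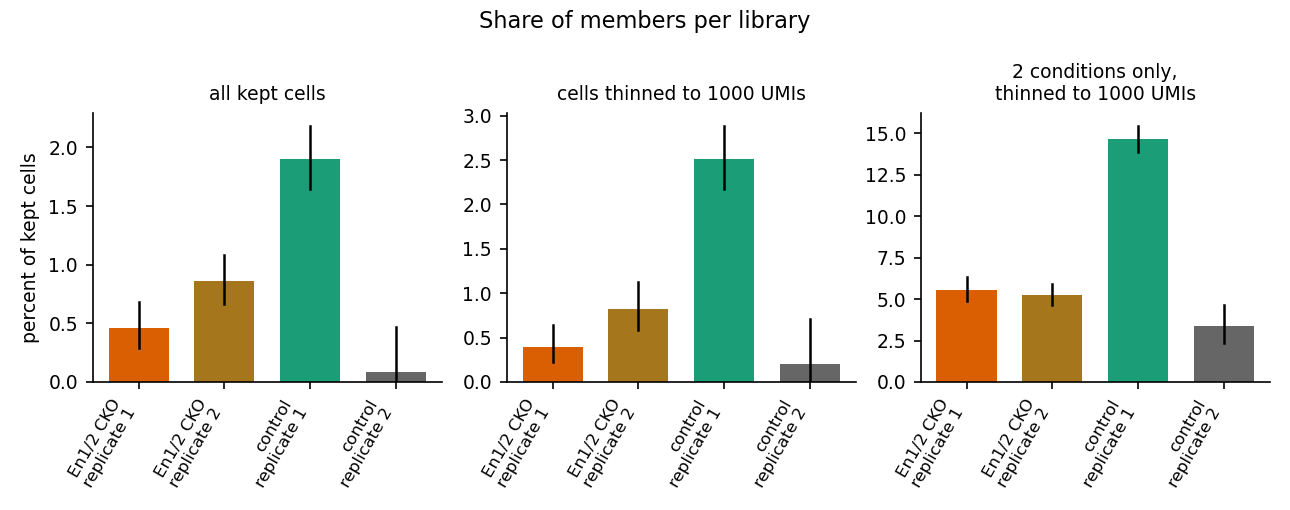
Percent of kept cells that were members in each library under the rule (left), the rule on cells thinned to 1000 UMIs (middle) and the marker and interneuron conditions alone on thinned cells (right); bars start at 0 and lines are exact Clopper-Pearson 95% intervals. In each panel both En1/2 CKO libraries lay between the controls.

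The targeted genes came first in the comparison of expression. En1 was 109 and 244 CPM in En1/2 CKO replicates 1 and 2, against 101 CPM in control replicate 1 in members, on 5, 22 and 25 UMIs, and did not pass the test, with log2 fold change 0.87 ± 0.62 (SE, edgeR, adjusted p = 0.999). En2 was 109 and 22.2 CPM in the mutant libraries against 129.9 CPM in control replicate 1, on 5, 2 and 32 UMIs, and was too sparse to be tested. Among members of at most 3000 UMIs, En1 was 290.4 and 312 CPM in the mutant libraries against 109 CPM in control replicate 1. In the same cells En2 was 290.4 and 31.2 CPM in the mutant libraries against 135 CPM in control replicate 1. Which exons the floxed alleles remove is not given in the sources used here, so transcripts counted from their 3′ end do not by themselves check deletion.

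Of 1255 genes with enough UMIs to be tested, 2 were higher in En1/2 CKO members (0.159%) and 0 were lower (0.0%) with edgeR's quasi-likelihood test at an adjusted p under 0.05. Before adjustment 27 genes higher and 12 lower had a p under 0.05, and DESeq2 called 0 in either direction, with 4 higher and 0 lower unadjusted. In simulated sums of these members the test recovered 28.0% of 4-fold changes. Most changes of that size were missed there, so a low count of calls does not show that few genes changed. The genes called were Ttr and Acot1. Ttr, which encodes transthyretin, the main secretory product of choroid plexus, had 2297 and 17 UMIs in the mutants, against 7 and 0 in the controls, with log2 fold change 9.85 ± 2.10 (SE, edgeR, adjusted p = 0.00351). Of the 2297 UMIs, 2296 lay in 1 cell of En1/2 CKO replicate 1, and without that library the adjusted p was 1.00. Acot1, an acyl-CoA thioesterase, had 19 and 28 UMIs in the mutants, against 15 and 0 in the controls, with log2 fold change 2.55 ± 0.61 (SE, edgeR, adjusted p = 0.0195), and 15 and 25 of the mutant UMIs lay in deep cells. Leaving out any 1 library ended both calls.

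Other named genes with the lowest p among those higher in both mutant libraries than in control replicate 1 rested in part on the deep cells. None of the following passed the test in all members. Some passed in alternatives (edgeR): with a marker sum of at least 3, Apoe had an adjusted p of 0.000919 and Gm10076 of 0.0234, and with the stricter cell filter Apoe had 0.00111, Phgdh 0.0156 and Nr2f1 0.0393. The stricter filter left 5 and 3 mutant members, against 22 and 0 control members. Apoe had 43 and 138 UMIs in the mutants, of which 42 and 134 were in deep cells, against 27 UMIs in control replicate 1. Among members of at most 3000 UMIs it was 58.1 and 62.4 CPM in the mutant libraries against 60.8 CPM in control replicate 1, on 1, 4 and 14 UMIs, and the 3 values lay close together. Phgdh, an enzyme of serine synthesis, had 18 and 8 of its 18 and 16 mutant UMIs in deep cells, and Sox9 had all 8 and all 14 of them there. Gm10076, Cd9, Hes6, AW047730, Nr2f1 and Sox2 were further genes of the group, with fitted log2 fold changes of 1.62 to 2.41. Of the tested genes 396 (31.6%) lay above control replicate 1 in both mutant libraries and 439 (35.0%) below.

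Genes with the lowest p among those lower in both mutant libraries did not pass either. Nxph4, a neurexophilin that binds neurexins, was 239.6 and 233 CPM in En1/2 CKO replicates 1 and 2, against 799.7 CPM in control replicate 1, with log2 fold change -1.60 ± 0.71 (SE, edgeR, adjusted p = 0.999). Among members of at most 3000 UMIs it was 639 and 312 CPM in the mutant libraries against 846 CPM in control replicate 1, and the mutants were still below. Srgap2, a GTPase-activating protein that acts with Slit and Robo signalling, was 87.1 and 99.8 CPM in the mutant libraries against 276 CPM in control replicate 1, without the deep cells 232 and 140.3 CPM in the mutant libraries against 286 CPM in control replicate 1, and it lies on chromosome 1 with En1. Slc30a3, a transporter that loads zinc into synaptic vesicles, was 109 and 189 CPM in the mutant libraries against 463 CPM in control replicate 1, without the deep cells 290.4 and 249 CPM in the mutant libraries against 495 CPM in control replicate 1, and it lies on chromosome 5 with En2. Tubb4a, Creld2, Fnbp1l, Gng3, Cnpy2, Atat1, Trim37, Scrt1 and Ndufb11 had fitted log2 fold changes of -2.03 to -1.12.

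**Figure D5:**
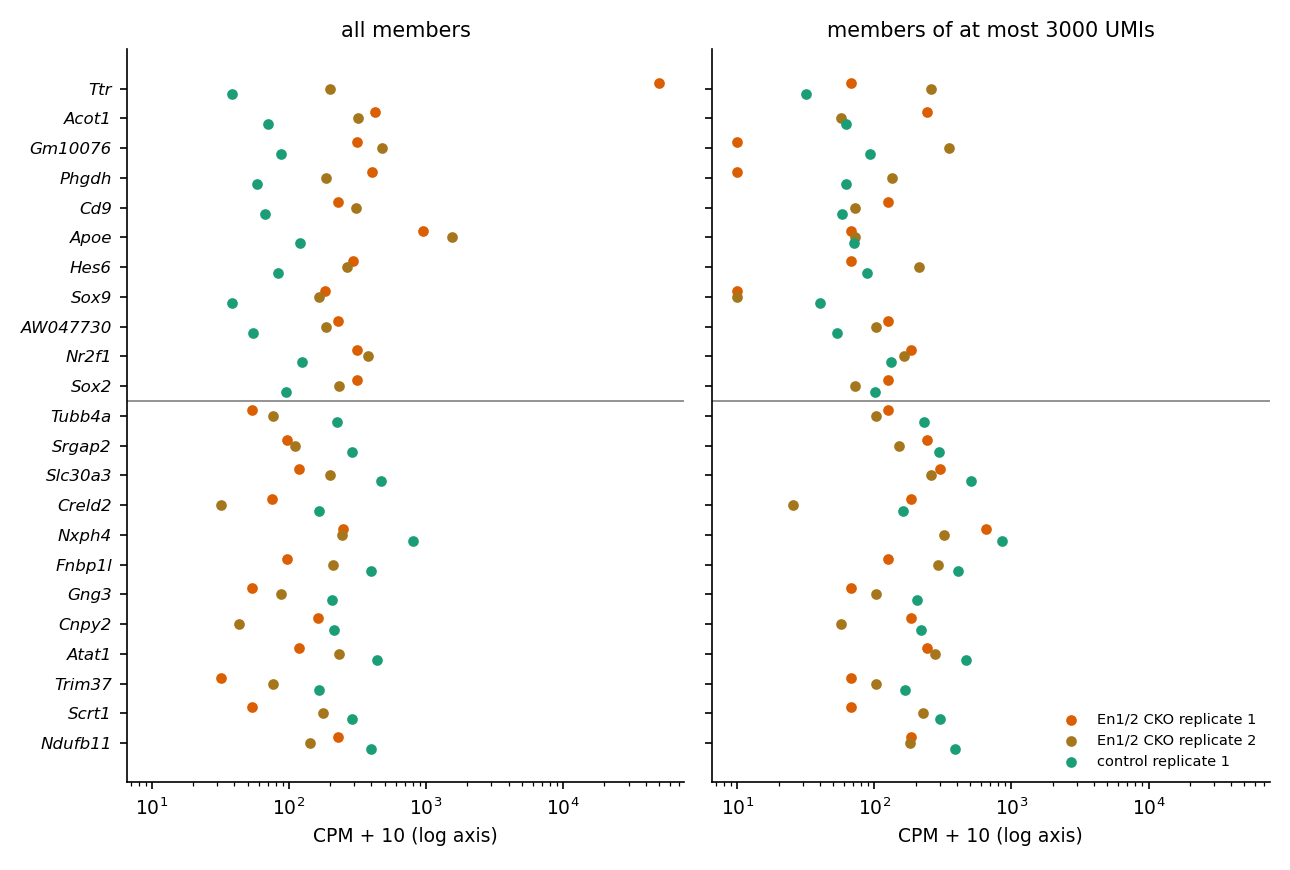
CPM + 10 (log axis) of genes with the lowest p among those higher (above the line) and lower (below it) in both En1/2 CKO libraries than in control replicate 1, in all members (left) and in members of at most 3000 UMIs (right); points are libraries. Only Ttr and Acot1 passed the test, and in the right panel Sox9 was at 0 in both mutant libraries.

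In members of at most 3000 UMIs, 1 of 707 genes passed (0.141% higher, 0.0% lower). It was the long non-coding RNA Snhg11, at 290.4 and 702 CPM in the mutant libraries against 17.4 CPM in control replicate 1, with a fitted log2 fold change of 4.98 ± 0.69 (SE, edgeR, adjusted p = 7.59e-10). All 45 UMIs of En1/2 CKO replicate 2 came from 4 cells, and En1/2 CKO replicate 1 had 5 UMIs, against 4 in control replicate 1. Without control replicate 2 this sum gave 2 higher and 0 lower of 1891 genes.

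By list, 0 genes of the 22 lists were called, and the counts are of fitted directions only. Over all 1255 genes 698 were above and 557 below, with a median log2 fold change of 0.07. No list was tested against these counts. Of 24 tested genes of migration and the cytoskeleton, 10 were above and 14 below, with a median of -0.12. Tuba1a, the tubulin of migrating neurons, was 4095 and 5978 CPM in the mutant libraries against 9707 CPM in control replicate 1, and Tmsb4x, an actin-binding peptide, was 4182 and 5069 CPM in the mutant libraries against 2890.5 CPM in control replicate 1. Without the deep cells Tuba1a was 6854 and 6955 CPM in the mutant libraries against 10200.4 CPM in control replicate 1, and Tmsb4x was 2382 and 3696 CPM in the mutant libraries against 1793 CPM in control replicate 1. Of 15 tested transcription factors 12 were above and 3 below, with a median of 0.47. Nfib was 1242 and 1830.1 CPM in the mutant libraries against 1299 CPM in control replicate 1 and Tcf4 1242 and 1375 CPM in the mutant libraries against 1149 CPM in control replicate 1. Without the deep cells Nfib was 2149 and 2167 CPM in the mutant libraries against 1372 CPM in control replicate 1, and Tcf4 was 2439.7 and 1622 CPM in the mutant libraries against 1181 CPM in control replicate 1. Of 6 immunoglobulin adhesion genes 3 were above and 3 below, at a median of 0.09, and of 6 synaptic genes 3 were above and 3 below, at -0.03. Of the netrin receptors, Dcc was 653 and 555 CPM in the mutant libraries against 386 CPM in control replicate 1, with log2 fold change 0.70 ± 0.75 (SE, edgeR, adjusted p = 0.999), and Unc5c was 609.9 and 477 CPM in the mutant libraries against 402 CPM in control replicate 1, with log2 fold change 0.56 ± 0.71 (SE, edgeR, adjusted p = 0.999). Without the deep cells Dcc was 1510.3 and 655 CPM in the mutant libraries against 412 CPM in control replicate 1, and Unc5c was 1394 and 671 CPM in the mutant libraries against 429.7 CPM in control replicate 1. The mutants were then further above control replicate 1, with fitted changes of 1.30 ± 0.81 for Dcc and 1.28 ± 0.78 for Unc5c (SE), and neither passed. Slc32a1 and Gad2, the tested genes of GABA handling, had fitted changes of -0.77 ± 0.66 and 0.22 ± 0.62 (SE), and neither passed. Without the deep cells Slc32a1 had -0.13 ± 0.65 (SE). Of the lists of voltage-gated channels and of Notch, Shh, Wnt and Fgf genes, 0 members had enough UMIs to be tested.

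The wider gate, with the marker and interneuron conditions alone, held 902 and 915 cells in the mutants, against 2048 and 115 in the controls. Its simulated sums recovered 82.9% of 4-fold changes. They gave all libraries the same mean profile apart from the changed genes, and all genes the same spread. That share therefore does not say how many real changes would be called. The wider gate was added after seeing the data and includes early, maturing and Ebf1-positive cells. Of 11788 genes, edgeR called 0 higher (0.0%) and 0 lower (0.0%), while 314 genes higher and 452 lower had a p under 0.05 before adjustment, and DESeq2 called 2 higher and 1 lower. Both mutant libraries lay above both controls for 22.3% of genes and below both for 14.1%. This result turned on single libraries: without control replicate 2 there were 1172 higher and 1496 lower, and without control replicate 1 there were 234 higher and 482 lower. En2 was 39.0 and 19.8 CPM in the mutants, against 125 and 48.8 CPM in the controls, so all mutant values lay below all control values. En1 was 109 and 81.2 CPM, against 145 and 109 CPM, so the groups overlapped at their edge. Slc32a1 was 206 and 231 CPM, against 510.2 and 261 CPM, and Klhl35 was 399.8 and 459.9 CPM, against 261 and 201 CPM. Their adjusted p with all libraries was 0.743 for En2, 0.743 for Slc32a1 and 0.743 for Klhl35 (edgeR). Nxph4 overlapped between the groups, at 365 and 323 CPM in the mutants, against 758 and 293 CPM in the controls.

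Whether the genotype difference of members was unlike that of another population was tested by an interaction term, each library being a block. Against early precursors 0 of 4247 genes passed (0.0% in each direction, edgeR), and 63 genes higher and 19 lower had a p under 0.05 before adjustment. Against maturing neurons 0 of 1863 passed (0.0%, 8 higher and 11 lower unadjusted), and against Purkinje-gated cells 0 of 4511 (0.0%, 43 higher and 23 lower unadjusted). Without control replicate 1 the counts were 105, 2 and 75 genes, a setting in which the 1 member of control replicate 2 was the whole control side. Without control replicate 2 they were 6, 5 and 1. The gene with the lowest p against early precursors was Slc4a4, a bicarbonate transporter, with 3 and 7 UMIs in mutant members, against 0 and 0 in control members, and 15 and 16 UMIs in mutant precursors, against 33 and 2 in control precursors. Its interaction was 7.88 ± 1.91 on the log2 scale (SE, edgeR, adjusted p = 0.155). Slc4a4 was 127 CPM in the deep cells of all libraries, against 3.21 CPM in the other members. Against maturing neurons the lowest p was that of Mt1, a metallothionein, with 1 and 11 UMIs in mutant members, against 45 and 0 in control members (adjusted p = 0.331, edgeR). Mt1 was 722 CPM in the deep cells of all libraries, against 19.2 CPM in the other members. Against Purkinje-gated cells the lowest p was that of Sst, which the rule restricts. Next came Clu, a secreted chaperone, with 13 and 8 UMIs in mutant members, against 0 and 0 in control members (adjusted p = 1, edgeR).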

How the data were processed

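Sorted tdTomato-positive cells were measured by 10x single-cell RNA-seq in 2 En1/2 CKO and 2 control libraries. The authors deposited UMI counts per gene and barcode for 32286 features, with no normalization, made with Cell Ranger 6.1.0 on mm10, per the submitters' processing notes. The deposited barcodes were filtered, gated and summed per library with Python 3.11.15 and scipy 1.17.1. CPM are UMIs scaled to 1000000 per sum. Exact Poisson and Clopper-Pearson 95% intervals cover counting error only, and 3 counts was the floor.

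Summed counts were compared between genotypes with edgeR 4.0.16 in R 4.3.3 (TMM, filterByExpr, quasi-likelihood test, Benjamini-Hochberg adjusted p under 0.05 over all genes tested). The SE given with a log2 fold change of edgeR was its absolute value divided by the square root of the test's F statistic. It was derived from the test and is not a separately estimated error. DESeq2 1.42.0 was an alternative. Interactions had the library as a block. Doublets were left in, and a Scrublet call (scanpy 1.11.5) marked 0, 6 and 23 members of En1/2 CKO replicates 1 and 2 and control replicate 1 in an alternative without them.

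The 12 genes named in each direction were those with the lowest p that had at least 20 CPM and lay on the same side of control replicate 1 in both mutant libraries. From each list up to 4 genes by level and 2 by p, and from each interaction up to 5 by p, could be named. Genes of the descriptions were the 15 highest and 10 lowest ratios of mean CPM, with 10 CPM added and a minimum of 50 CPM. Conditions on every library were applied to the 3 with at least 20 members. The members, lists and rules were chosen with earlier results of these data known. On simulated counts with 4-fold changes the test recovered 28.0% of changed genes in members (1217 genes) and 82.9% in the wider gate (11523 genes). The simulated libraries shared a mean profile apart from the changed genes, with the same spread for all genes, unlike the real libraries. Some genes that met these rules are not reported here.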

Additional observations from a re-analysis of the deposited data

How the results depend on the processing

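The count of genes higher in En1/2 CKO members was 2, and it stayed 2 with RLE size factors and with a Robo3 UMI required. It was 0 with no low-count filter, with DESeq2 and in thinned sums, where 3 genes could be tested. It was 5 with the stricter cell filter, 1 with doublets removed, 4 with a marker sum of at least 3 and 1 in cells of at most 3000 UMIs. It ranged from 0 to 0 when each library was left out. The count of genes lower was 0, and 7 with the stricter cell filter. That filter (at least 1000 genes, at most 5% mitochondrial UMIs) left 5 and 3 members in the mutants, against 22 and 0 in the controls, so its control side was 1 library, and the 28694 UMIs of En1/2 CKO replicate 1 were as many as in its deep cells. In the wider gate it was 0 higher and 0 lower (0 higher with RLE size factors, 1 lower with DESeq2), and leaving out each library gave 2 to 1172 higher and 1 to 1496 lower, with 234 higher and 482 lower without control replicate 1. With the replicate number as a block the count was 0 in members and 1 in the wider gate. The labels do not say that a number marks a shared batch, and deviations of same-numbered libraries correlated at 0.0438 in members and -0.120 in the wider gate. In members the control deviation rests on the 1 cell of control replicate 2, so the value in members cannot show whether a batch was shared. Crossing the numbers gave 0 in members, and 16 higher and 7 lower in the wider gate. Interactions were 0 and became 3, 2 and 1 against early, maturing and Purkinje-gated cells with the stricter cell filter, and ranged from 0 to 105, 0 to 5 and 0 to 75 when each library was left out. The difference in the share of kept cells ranged from -1.25 to 0.573 percentage points when each library was left out, and that of inhibitory-marker cells from -1.62 to 1.29. The second was 0.525 in cells of at most 3000 UMIs and 4.69 in the wider gate. When each library was left out the log2 fold change ranged from -1.22 to 6.01 for Ndufb11, from -0.42 to 1.08 for En1 and from -0.998 to 6.83 for Slc32a1. The signs turned without control replicate 1, where the control side was the 1 member of control replicate 2, with 895 UMIs. In that setting the median log2 fold change over all 1120 genes tested was 6.31, so these values are not particular to the named genes. For Slc32a1 the sign turned also without the first mutant library, at 0.19. The cause of these changes was not tested. Cells of at most 3000 UMIs, the wider gate and crossed numbers were chosen after seeing the data. Depth limits low levels: 3 UMIs equal 65.3 and 33.3 CPM in the mutants, against 12.2 CPM in control replicate 1 and 3352 CPM in control replicate 2.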
